A study of Homo sapiens with 8 samples.

Results

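A pair of guide RNAs directed to the same enhancer were set against each other in NCI-H2009 cells, a widely used line grown from a human lung adenocarcinoma. The enhancer, called e3, is studied for its control of MYC. The comparison took 4 of the 8 libraries of the series, 2 with e3 guide 1 and 2 with e3 guide 2, and every gene whose mean over those 4 reached 1 RPKM. RPKM is the number of reads scaled to gene length and library depth. Of the 52576 genes in the table, 13973 met this limit, whatever their difference between the guides. A gene present with only 1 of the guides could also meet it. The remaining 4 libraries, 2 of cells given no guide RNA and 2 of cells given a non-targeting guide, one with no match in the human genome, did not enter the comparison of the guides, except to estimate the spread in an alternative setting, and are shown as levels beside the results. All 8 libraries, the controls included, came from cells first transfected with dCas9-KRAB, and 6 of them then received a guide. The cells were grown in RPMI medium with 10% fetal bovine serum. Whether libraries of the same guide stem from different cultures, clones or transfections is not in the labels, so the p-values measure only how far these libraries differ, and that spread may be technical. Nothing in the labels gives how long the cells carried the guide.

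dCas9-KRAB is a fusion of the KRAB domain of zinc finger repressors to a Cas9 whose nuclease is inactive, so that it binds DNA and leaves it uncut. KRAB recruits the corepressor TRIM28 and histone methyltransferases, which lay down repressive chromatin around the site that the guide selects. Guides to different stretches of one enhancer can differ in how well they place the repressor and in which other sites they match. A comparison of one guide with another therefore asks which genes differ between cells in which the same element was the stated target. MYC encodes a transcription factor that drives ribosome production, metabolism and cell division, and distal enhancers on its chromosome arm control it in several cancers.

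Low RPKM values moved in steps of whole reads, which gave the depth of each library. Values came out whole, to within 0.03 reads, for 13955 of the 13973 genes (99.87%). Depth ran from 3868030 to 5743585 reads over the series, and both of these libraries carried an e3 guide, the shallowest being guide 1 replicate 2 and the deepest guide 2 replicate 1. A tested gene held a median of 121 reads in an e3 library. Over 12259 genes, chi-square per degree of freedom was 1.90 between the libraries of guide 1 and 1.97 between those of guide 2, against 3.09 to 3.42 between libraries of different guides. The labelled cell type was checked on its markers. All 7 epithelial markers, keratins and EPCAM among them, lay between 57.5 and 1260 RPKM in the 4 libraries, and the lung lineage factor NKX2-1 between 24 and 31.1 RPKM. The surfactant genes SFTPB and SFTPC were at 0. Among markers of other cell types, COL3A1, DCN, CD3E and HBB were at 0 and the 3 endothelial markers stayed under 1 RPKM, whereas CD68, also made by epithelial tumour cells, lay between 28.3 and 31.8 RPKM and COL1A1 between 5.55 and 6.68 RPKM. In such bulk libraries fewer cells of a type and less RNA per cell cannot be told apart.

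MYC (ENSG00000136997.9) was lower with guide 2 than with guide 1 in each library, but the difference did not pass the test. It stood at 42.4 and 43.4 RPKM with guide 1 and at 36.3 and 36.2 RPKM with guide 2, from 553, 504, 625 and 465 reads. The libraries of the guides did not overlap, which was also true of 5798 of the 13973 genes (41.5%), and all 4 lay under the controls, whose means were 89.5 RPKM with the non-targeting guide and 73.7 RPKM without a guide. The ratio of the guide means was 0.845. On the log2(RPKM + 1) scale, used for every difference here and always taken as guide 2 minus guide 1, the difference was -0.24 ± 0.07 (SE, 2 libraries a guide), with a 95% interval from -0.40 to -0.07. The adjusted p was 0.396, and it ranged from 0.192 to 0.800 over the alternative settings. PVT1, the noncoding RNA gene next to MYC, stood at 1.59 and 2.30 RPKM with guide 1 and at 1.61 and 2.08 RPKM with guide 2. Its libraries overlapped, and the difference of -0.04 ± 0.24 had an interval from -0.64 to 0.56, too wide to say that the guides act alike on it.

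Of the 31 tested genes that neighbour MYC in 8q24, none passed the test. At an unadjusted p under 0.05, 3 were higher with guide 2 and 2 were lower, where 4.26% and 5.42% of all genes tested were. The higher ones were NSMCE2, a SUMO ligase gene of DNA repair (0.56), MTSS1, an actin and membrane scaffold gene (0.56), and DERL1, of the machinery that removes misfolded proteins from the endoplasmic reticulum (0.33). The lower ones were MYC and NDUFB9 (-0.24), which encodes a subunit of respiratory complex I. Within the MYC network, 11 genes of partners and antagonists, MXD3 was the only other gene under that p. MXD3, which encodes a MAX partner that opposes MYC, stood at 6.67 and 7.50 RPKM with guide 1 and at 3.84 and 4.34 RPKM with guide 2 (-0.67 ± 0.15, adjusted p = 0.330). MAX itself differed by 0.10 (adjusted p = 0.789).

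Across the 13973 genes, 1 passed at an adjusted p under 0.05 (0.00716%), and it was higher with guide 2. It no longer passed when any 1 of the 4 libraries was left out, without the variance trend, without the filter on low values or with the replicate number as a block. At an unadjusted p under 0.05 there were 1352 genes (9.68%), 595 higher (4.26%) and 757 lower (5.42%). The median size of the difference between guide means was 0.129, beside 0.147 and 0.139 between the libraries of guide 1 and of guide 2, and 0.159 and 0.171 between single libraries of different guides with the same number. A difference of at least 1 was seen in 161 genes, 77 higher and 84 lower, and 135 of these had means under 5 RPKM. For 12250 genes (87.7%) the 95% interval of the difference lay within 1 on either side of 0, and for 6637 (47.5%) within 0.5. With 2 libraries a guide, an exact permutation test of a single gene cannot go below p = 0.333, so all calls rest on the spread that limma shares across genes. Among the controls, tested in the same design, the non-targeting guide and no guide differed at 1270 of 13997 genes (9.07%), and at 3624 (25.9%) by an unadjusted p under 0.05.

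**Figure D1:**
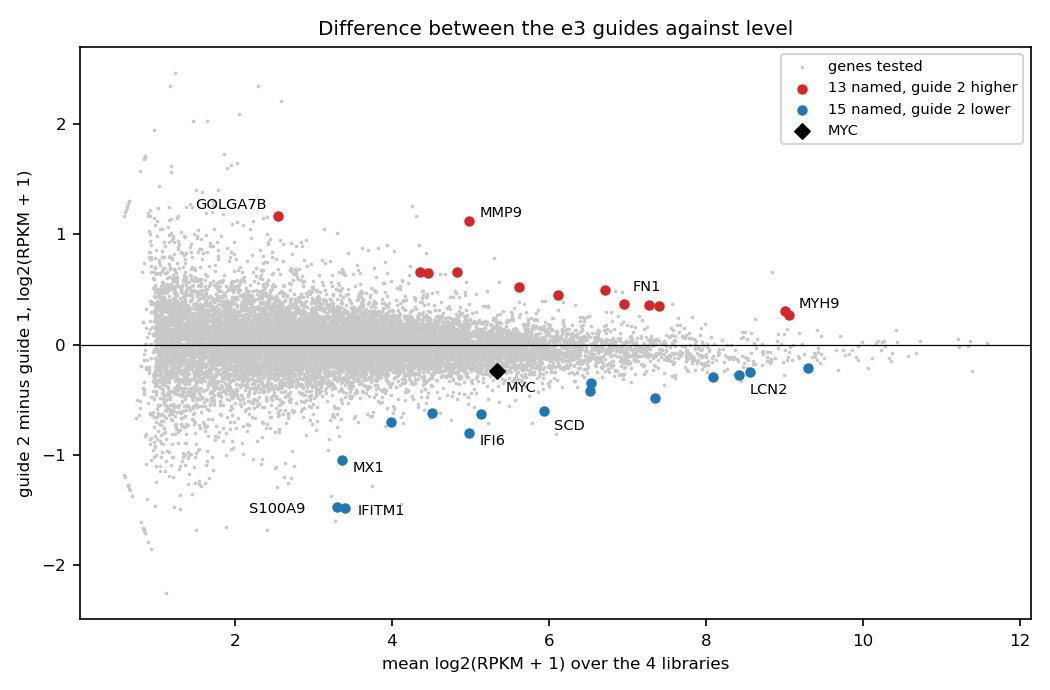
Difference between the e3 guides for each of the 13973 genes tested (vertical axis, guide 2 minus guide 1 in log2(RPKM + 1)) against the mean level over the 4 libraries (horizontal axis, same scale), with 13 named genes on the higher side and 15 on the lower in colour and MYC as a black diamond. Differences spread widest at low levels, with MMP9 at 1.12 and IFITM1 at -1.48 among the named genes farthest from 0.

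Genes of the basement membrane and of its breakdown stood higher with guide 2, without passing. LAMB3, which encodes a laminin beta chain, was at 146.5 and 152 RPKM with guide 1 and at 189 and 192 RPKM with guide 2 (0.35 ± 0.04, adjusted p = 0.181). LAMA3, which encodes a laminin alpha chain, was at 42.5 and 41.4 RPKM with guide 1 and at 57.3 and 53.4 RPKM with guide 2 (0.39 ± 0.07, adjusted p = 0.242). Neither gene's libraries overlapped between guides, which was part of the rule that named LAMB3 and held for 41.5% of all genes. For LAMB3 the controls lay below both guides, at means of 123 RPKM with the non-targeting guide and 75.1 RPKM without a guide.

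MMP9, which encodes a gelatinase that degrades basement membrane collagen, stood at 20.2 and 20.9 RPKM with guide 1 and at 46.2 and 45.3 RPKM with guide 2, a ratio of 2.23 (1.12 ± 0.07, adjusted p = 0.0578). The non-targeting guide, at a mean of 24.5 RPKM, lay between the guides, and cells without a guide were at 0.310 RPKM. Both libraries of guide 2 were the high ones of the series. With the spread estimated over all 8 libraries, 4 genes passed (0.0286%), 3 higher and 1 lower, among them MMP9 (higher, adjusted p = 0.0247) and SCD (lower). MMP9 also passed with a minimum mean of 5 RPKM and with quantile normalization.

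The list of mesenchymal and matrix genes, 28 tested of 37, held 17 genes that were higher and 1 that was lower at an unadjusted p under 0.05, and 10 that were not under it, against 4.26% higher and 5.42% lower over all genes. Its median difference was 0.36, beside 0.00 over all genes. FN1, the matrix protein fibronectin, stood at 107 and 109 RPKM with guide 1 and at 138 and 142 RPKM with guide 2 (0.37 ± 0.05, adjusted p = 0.181). ITGB6, which pairs with ITGAV as the integrin that activates latent TGF-beta, stood at 57.1 and 59.6 RPKM with guide 1 and at 78.3 and 81.9 RPKM with guide 2 (0.45 ± 0.06), and ITGAV differed by 0.30. Actin-associated genes were on the same side, with differences of 0.77 for TAGLN, 0.47 for MYL9 and 0.43 for TPM1, as were the intermediate filament gene VIM (0.40) and the matrix genes THBS1 (0.46) and TNC (0.26). S100A4, a calcium-binding protein gene often used as a mesenchymal marker, was the one on the lower side, at 19.03 and 19.4 RPKM with guide 1 and at 11.5 and 11.4 RPKM with guide 2 (-0.70 ± 0.09, adjusted p = 0.181).

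The replicates of each group lay close together on that list. Relative to the guide 1 mean, the median member was higher by 0.340 and 0.353 in the libraries of guide 2, lower at -0.367 and -0.362 with the non-targeting guide, and lower still at -1.06 and -1.08 without a guide. The controls thus also differed from each other on this list, and they share no library with the comparison of the guides.

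Extracellular proteases and the plasminogen system, 25 genes tested of 32, had a median of 0.16. At an unadjusted p under 0.05, 7 were higher (28.0%) and 2 were lower (8.0%), beside 4.26% and 5.42% of all genes. Besides MMP9, MMP14, a membrane-bound collagenase gene, stood at 39.5 and 40.6 RPKM with guide 1 and at 56.3 and 59.7 RPKM with guide 2 (0.52 ± 0.07, adjusted p = 0.181). PLAU, the urokinase plasminogen activator, stood at 473 and 448 RPKM with guide 1 and at 581 and 558 RPKM with guide 2 (0.31 ± 0.04, adjusted p = 0.181), and its receptor PLAUR differed by 0.25. PLAT, the tissue-type activator, was on the other side, at 386 and 375 RPKM with guide 1 and at 332 and 329 RPKM with guide 2 (-0.20 ± 0.03, adjusted p = 0.222). The lysosomal protease gene CTSD was also lower (-0.23). With quantile normalization PLAT stood at -0.11 and CTSD at -0.13.

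The median of 27 tested genes of the TGF-beta pathway was 0.12. At an unadjusted p under 0.05, 8 were higher (29.6%) and 1 was lower (3.7%), beside 4.26% and 5.42% of all genes. Among them were the ligand gene TGFB2 (0.32), the receptor genes TGFBR1 (0.30) and TGFBR2 (0.22), and the target and feedback genes PMEPA1 (0.66) and SMAD7 (0.44). PMEPA1 stood at 15.9 and 14.9 RPKM with guide 1 and at 25.4 and 24.3 RPKM with guide 2 (adjusted p = 0.182), above its means of 8.63 and 3.09 RPKM in the controls with the non-targeting guide and without a guide. ID1, a target of the BMP branch of the pathway, was lower with guide 2 (-0.28). The latent TGF-beta binding protein family gene LTBP2 (0.52) and the activin antagonist FSTL3 (0.56) were also among the 8. FSTL3 stood at 0.31 without guide 1 replicate 2.

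Other named genes on the higher side had adjusted p-values of 0.181. CDKN1A, the cell cycle inhibitor p21, stood at 21.8 and 21.3 RPKM with guide 1 and at 35.4 and 33.8 RPKM with guide 2 (0.66 ± 0.08). The nuclear noncoding RNA MALAT1 stood at 85.9 and 88.6 RPKM with guide 1 and at 122 and 124 RPKM with guide 2 (0.49 ± 0.05), and here the controls, at means of 110.5 and 127.6 RPKM, were nearer to guide 2. MYH9, the heavy chain of non-muscle myosin, differed by 0.27, PLEC, a linker of hemidesmosomes to the cytoskeleton, by 0.36, and SEMA7A, a membrane-anchored semaphorin gene, by 0.65. GOLGA7B, of a family that assists protein palmitoylation, differed by 1.17, but from 6, 5, 21 and 15 reads. CDKN1A and THBS1 belong to 19 tested genes listed as repressed by MYC (median 0.13). At an unadjusted p under 0.05, 9 of the 19 were higher (47.4%) and 1 was lower (5.26%), beside 4.26% and 5.42% of all genes.

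**Figure D2:**
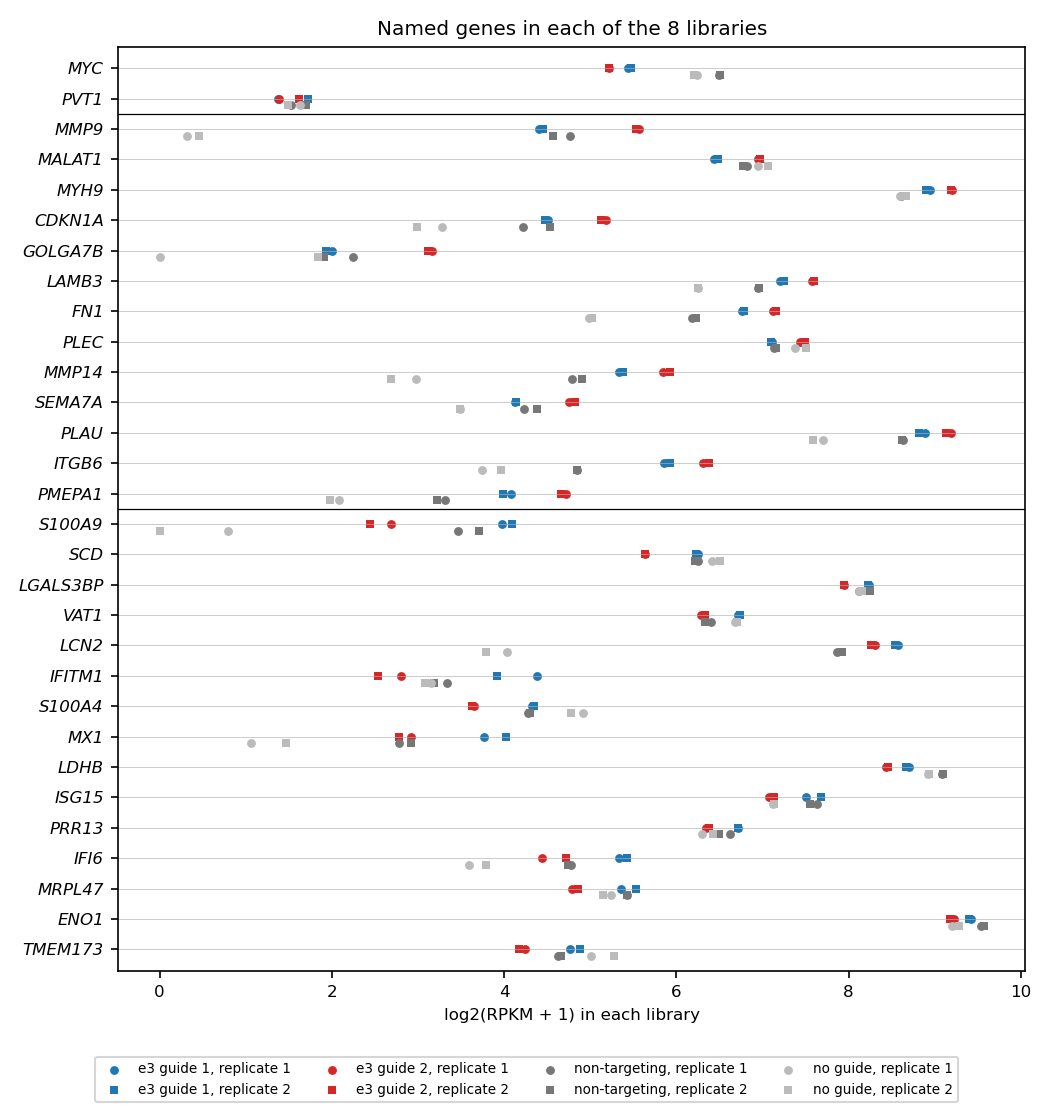
Level of MYC, PVT1 and 28 named genes in each library, in log2(RPKM + 1), with guide 1 in blue, guide 2 in red, the controls in grey and the replicate number by marker shape. The named genes were chosen so that guide 2 lies above guide 1 in the upper group and below it in the lower group. The grey points show that the place of the controls varies from gene to gene.

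Most genes induced by interferons stood lower with guide 2. These antiviral genes are switched on through a transcription factor complex that holds STAT2 and IRF9 and binds the interferon-stimulated response element in their promoters. Of 40 tested of 47 listed, 18 were lower and 0 higher at an unadjusted p under 0.05, beside 5.42% and 4.26% of all genes. None of the 40 passed after adjustment. The median difference was -0.29, and for 29 of the 40 both libraries of guide 2 lay under both of guide 1, which held for 20.5% of all genes.

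The promoters of 4 of the interferon genes named by the rule are shown because they carry the core of that element. In the RefSeq promoter table (build GRCh38.p14), GAAANNGAAA or its reverse complement TTTCNNTTTC, sought on both strands in the 250 bases before the start, occurred in 23 of the 30 genes of the list that had an entry (76.7%), and in 1014 of all 27305 genes (3.71%). Among the named genes it occurred in 5 of the 13 on the lower side with an entry, the fifth being MX1, and in 0 of 11 on the higher side. MMP9, PLEC, TMEM173 and VAT1 were among those without an entry. The windows are ISG15 at chr1:1013247-1013496 on the plus strand, IFI6 at chr1:27672193-27672442 on the minus strand, IFITM1 at chr11:313790-314039 on the plus strand and LGALS3BP at chr17:78979924-78980173 on the minus strand, each 5′ to 3′ toward the gene with the matching bases in capitals.
ISG15: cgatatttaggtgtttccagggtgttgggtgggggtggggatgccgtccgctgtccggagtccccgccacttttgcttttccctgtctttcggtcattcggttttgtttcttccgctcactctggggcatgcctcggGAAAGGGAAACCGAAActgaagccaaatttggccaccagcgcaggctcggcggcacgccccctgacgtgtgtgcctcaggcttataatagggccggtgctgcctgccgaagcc
IFI6: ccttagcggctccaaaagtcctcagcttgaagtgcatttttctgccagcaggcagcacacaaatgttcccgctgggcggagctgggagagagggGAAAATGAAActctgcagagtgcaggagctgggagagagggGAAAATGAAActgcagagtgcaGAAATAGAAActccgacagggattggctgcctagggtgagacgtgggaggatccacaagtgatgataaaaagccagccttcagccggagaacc
IFITM1: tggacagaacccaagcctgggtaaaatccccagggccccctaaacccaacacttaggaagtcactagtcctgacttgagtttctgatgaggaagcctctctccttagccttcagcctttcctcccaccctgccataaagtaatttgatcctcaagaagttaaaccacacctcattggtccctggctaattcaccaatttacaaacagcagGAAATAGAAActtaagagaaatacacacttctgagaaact
LGALS3BP: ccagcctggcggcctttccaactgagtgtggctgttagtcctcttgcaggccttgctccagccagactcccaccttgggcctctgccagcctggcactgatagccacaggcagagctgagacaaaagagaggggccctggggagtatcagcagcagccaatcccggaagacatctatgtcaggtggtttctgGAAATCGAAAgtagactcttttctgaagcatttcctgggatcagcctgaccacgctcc
ISG15 has 2 overlapping matches, IFI6 has 3 matches, and IFITM1 and LGALS3BP have 1 each. A match describes the letters only and does not show that a factor binds there.

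The gene with the largest size of difference among them was IFITM1, which encodes a membrane protein that blocks virus entry and whose relatives IFITM2 and IFITM3 are similar enough in sequence to share reads with it. It stood at 19.8 and 14.2 RPKM with guide 1 and at 5.96 and 4.80 RPKM with guide 2 (-1.48 ± 0.19, adjusted p = 0.181), and its control means were 8.59 RPKM with the non-targeting guide and 7.68 RPKM without a guide, between the guides. MX1, an antiviral GTPase gene, stood at 12.6 and 15.2 RPKM with guide 1 and at 6.56 and 5.87 RPKM with guide 2 (-1.04 ± 0.14), with 6.22 RPKM for the non-targeting guide, close to guide 2. For both genes the libraries of guide 1 were the high ones of the series. ISG15, a ubiquitin-like protein gene, stood at 181 and 204 RPKM with guide 1 and at 134 and 139.8 RPKM with guide 2 (-0.48 ± 0.07, adjusted p = 0.193). IFI6 stood at 39.3 and 42.1 RPKM with guide 1 and at 20.7 and 25.3 RPKM with guide 2 (-0.80 ± 0.11). LGALS3BP, a secreted glycoprotein gene, stood at 302 and 299 RPKM with guide 1 and at 246 and 245 RPKM with guide 2 (-0.29 ± 0.03). Its control means of 289 and 282 RPKM also lay between the guides, and its difference was -0.18 with quantile normalization.

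TMEM173, which encodes STING, the adaptor that links cytosolic DNA to interferon production, was among the named genes on the lower side too. It stood at 26.3 and 28.5 RPKM with guide 1 and at 17.9 and 17.1 RPKM with guide 2 (-0.62 ± 0.09, adjusted p = 0.193), against 23.97 and 34.5 RPKM in the controls. Other members under an unadjusted p of 0.05 were IFI27 (-1.25), OAS2 (-0.64), USP18 (-0.56), IFIT1 (-0.53), OAS3 (-0.39), IFITM2 (-0.33) and BST2 (-0.21). IFI27 stood at -0.81 without guide 2 replicate 2, and OAS2 at -1.05 with a pseudocount of 0.1 RPKM. The regulators IRF7 (0.24), STAT2 (0.14) and IRF1 (0.11) were not under it. The 22 MHC genes tested had a median of 0.02. At an unadjusted p under 0.05, 4 were lower (18.2%, beside 5.42% of all genes) and 0 higher. The class II gene HLA-DRB1, which can share reads with related DRB genes, stood at 5.04 and 3.78 RPKM with guide 1. With guide 2 it stood at 1.70 and 1.90 RPKM (adjusted p = 0.330). Relative to the guide 1 mean, the median interferon gene was at -0.289 and -0.252 with guide 2, at -0.196 and -0.213 with the non-targeting guide and at -0.497 and -0.449 without a guide, so guide 1 had the highest level of the 4 groups.

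**Figure D3:**
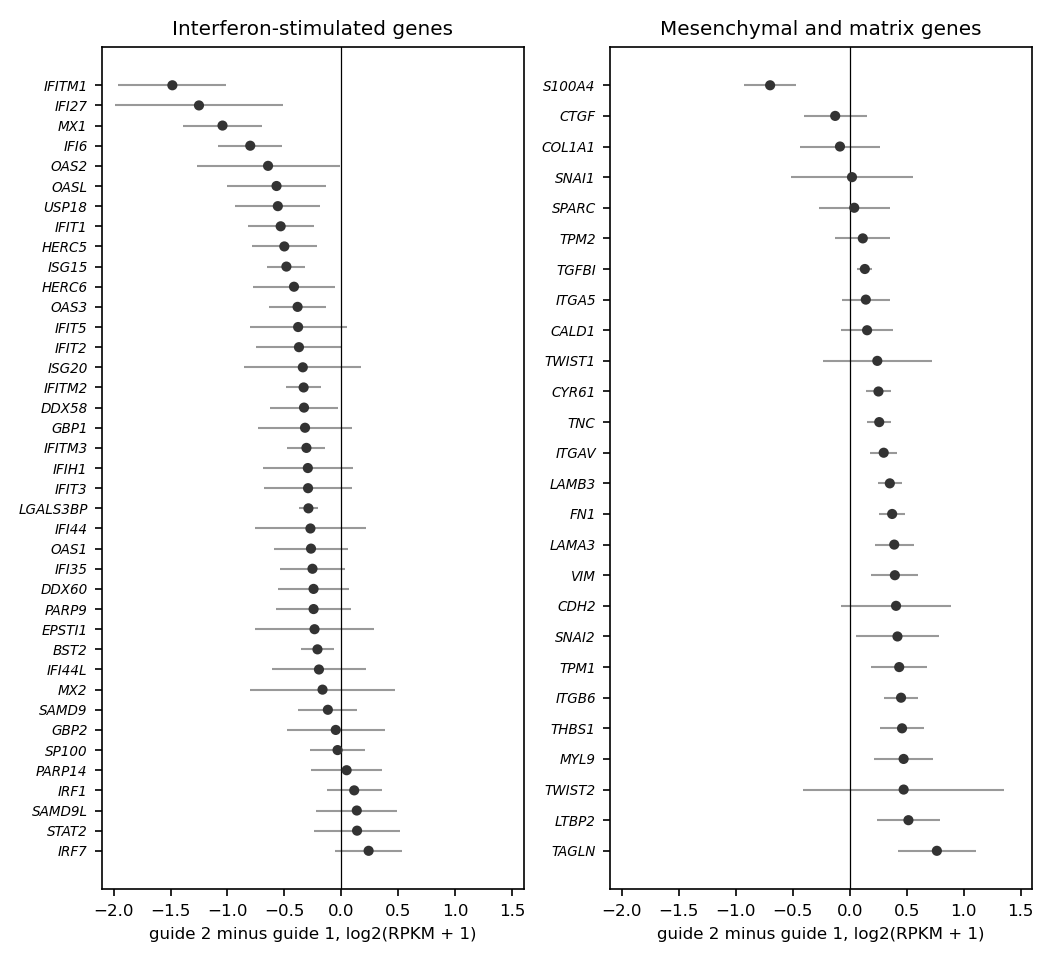
Difference between the e3 guides (horizontal axis, guide 2 minus guide 1 in log2(RPKM + 1)) for 39 tested genes of the interferon list (left) and 26 of the mesenchymal and matrix list (right), with 95% intervals as lines. Most interferon genes lie left of 0 and most matrix genes right of it, with IFITM1 (-1.48) and TAGLN (0.77) at the ends, and none of those drawn passed after adjustment.

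Most lipid synthesis genes were on the lower side. The 35 tested genes of cholesterol and fatty acid synthesis had a median of -0.15. At an unadjusted p under 0.05, 10 were lower (28.6%, beside 5.42% of all genes) and 0 higher. SCD, which desaturates fatty acids, stood at 75.1 and 73.7 RPKM with guide 1 and at 48.5 and 48.9 RPKM with guide 2, a ratio of 0.655 (-0.60 ± 0.06, adjusted p = 0.181, and 0.0228 with the spread of all 8 libraries). The non-targeting guide, at a mean of 74.2 RPKM, and cells without a guide, at 87.1 RPKM, were both level with or above guide 1, so the libraries of guide 2 were the low ones of the series. SREBF1, the transcription factor gene that drives this pathway, stood at 32.0 and 33.3 RPKM with guide 1 and at 23.5 and 22.2 RPKM with guide 2 (-0.50 ± 0.08, adjusted p = 0.222). Fatty acid synthase, FASN, differed by -0.28, the desaturase gene FADS2 by -0.34, and the sterol synthesis gene FDFT1 by -0.29.

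Glycolysis and hypoxia genes, 38 tested of 42, had a median of -0.16. At an unadjusted p under 0.05, 16 were lower (42.1%) and 1 was higher (2.63%), beside 5.42% and 4.26% of all genes. LDHB, a lactate dehydrogenase subunit, stood at 416 and 407 RPKM with guide 1 and at 344 and 350.0 RPKM with guide 2 (-0.24 ± 0.03, adjusted p = 0.182). ENO1, enolase, stood at 686 and 673 RPKM with guide 1 and at 596 and 577 RPKM with guide 2 (-0.21 ± 0.03, adjusted p = 0.193). LDHA (-0.21), GPI (-0.25), TPI1 (-0.18), ALDOA (-0.14) and PFKFB3 (-0.38), which makes the activator of phosphofructokinase, were lower as well. With quantile normalization LDHA stood at -0.11, TPI1 at -0.10 and ALDOA at -0.031. VEGFA, the angiogenic growth factor gene, was the one on the higher side (0.25). Relative to the guide 1 mean the median gene was at -0.191 and -0.156 with guide 2, at 0.057 and 0.016 with the non-targeting guide, and at -0.402 and -0.448 without a guide.

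Most genes of protein synthesis were lower with guide 2 by small amounts. Of 79 cytosolic ribosomal protein genes, 47 were lower (59.5%, beside 5.42% of all genes) and 0 higher at an unadjusted p under 0.05. For 70 of the 79 both libraries of guide 2 lay under both of guide 1, which held for 20.5% of all genes. The median was -0.13, and -0.08 with quantile normalization. RPS19 stood at 913 and 868 RPKM with guide 1 and at 768 and 747 RPKM with guide 2 (-0.23 ± 0.03, adjusted p = 0.204). Several ribosomal protein genes have near-identical copies elsewhere in the genome, and how reads shared with them were counted is not given in the sources used here. Relative to the guide 1 mean, the median ribosomal gene was at -0.130 and -0.134 with guide 2 and between 0.241 and 0.314 in the 4 control libraries. Translation factors and tRNA synthetases, 52 genes, had 10 lower (19.2%, beside 5.42% of all genes) and 0 higher (median -0.08).

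Among 60 tested MYC targets of the nucleolus and of growth, 5 were lower (8.33%) and 1 higher (1.67%) at an unadjusted p under 0.05, beside 5.42% and 4.26% of all genes, with a median of -0.09. C1QBP, a mitochondrial matrix protein gene, stood at 74.1 and 69.8 RPKM with guide 1 and at 54.5 and 56.1 RPKM with guide 2 (-0.37 ± 0.06, adjusted p = 0.222), and the nucleolar gene NPM1 differed by -0.17, or by -0.11 with quantile normalization. Nuclear genes of respiratory chain subunits had 14 of 73 lower (19.2%) and 0 higher (median -0.11), among them ATP5I (-0.37), of ATP synthase, and SDHC (-0.28), of succinate dehydrogenase. Mitochondrial ribosomal protein genes had 5 of 74 lower (6.76%) and 1 higher (1.35%), with a median of -0.07, a share of lower genes near that of all genes. MRPL47, one of those 5, stood at 40.0 and 45.4 RPKM with guide 1 and at 26.6 and 28.0 RPKM with guide 2 (-0.63 ± 0.09, adjusted p = 0.193).

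Of 56 genes of G2 and mitosis, 14 were lower and 0 higher at an unadjusted p under 0.05, with a median of -0.13. CCNB2, a mitotic cyclin gene, stood at 51.6 and 54.6 RPKM with guide 1 and at 40.1 and 40.6 RPKM with guide 2 (-0.39 ± 0.07, adjusted p = 0.232). AURKB, a mitotic kinase gene, differed by -0.33, and TPX2, of spindle assembly, by -0.22. Of 49 S phase genes 2 were higher (4.08%) and 1 was lower (2.04%), with a median of 0.04. These shares were no larger than the 4.26% and 5.42% of all genes. The cyclin gene CCNE1 (0.24) was one of the 2 higher. CCND1, the G1 cyclin D1, stood at 41.8 and 39.9 RPKM with guide 1 and at 52.1 and 51.6 RPKM with guide 2 (0.34 ± 0.07, adjusted p = 0.296). The difference between the lists was not tested.

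Of 35 NF-kB and inflammatory genes, 7 were higher and 1 was lower at an unadjusted p under 0.05 (median 0.17). The shares of all genes under that p were 4.26% higher and 5.42% lower. IL32, a cytokine gene, stood at 16.4 and 13.96 RPKM with guide 1 and at 30.6 and 25.2 RPKM with guide 2 (0.84 ± 0.13, adjusted p = 0.222), and the chemokine genes CXCL1 (0.45) and IL8 (0.34) and the growth factor gene CSF2 (0.36) were higher too. These genes differed far more between the controls, their median being 1.26 for the non-targeting guide minus no guide, so that IL32 stood at means of 24.6 and 1.16 RPKM there. S100A9, a calprotectin subunit gene, stood at 14.7 and 16.1 RPKM with guide 1 and at 5.42 and 4.45 RPKM with guide 2 (-1.47 ± 0.14, adjusted p = 0.181), from 37, 36, 18 and 11 reads. LCN2, an iron-scavenging lipocalin gene, stood at 381 and 372 RPKM with guide 1 and at 315 and 307 RPKM with guide 2 (-0.28 ± 0.04, adjusted p = 0.181, and -0.16 with quantile normalization). Both were lowest without a guide, at means of 0.369 RPKM for S100A9 and 14.1 RPKM for LCN2. They were the 2 lower of 11 tested acute-phase and antimicrobial genes at an unadjusted p under 0.05 (18.2%, beside 5.42% of all genes). None was higher, and the list median was -0.07, with 5 differences above 0 and 6 below.

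**Figure D4:**
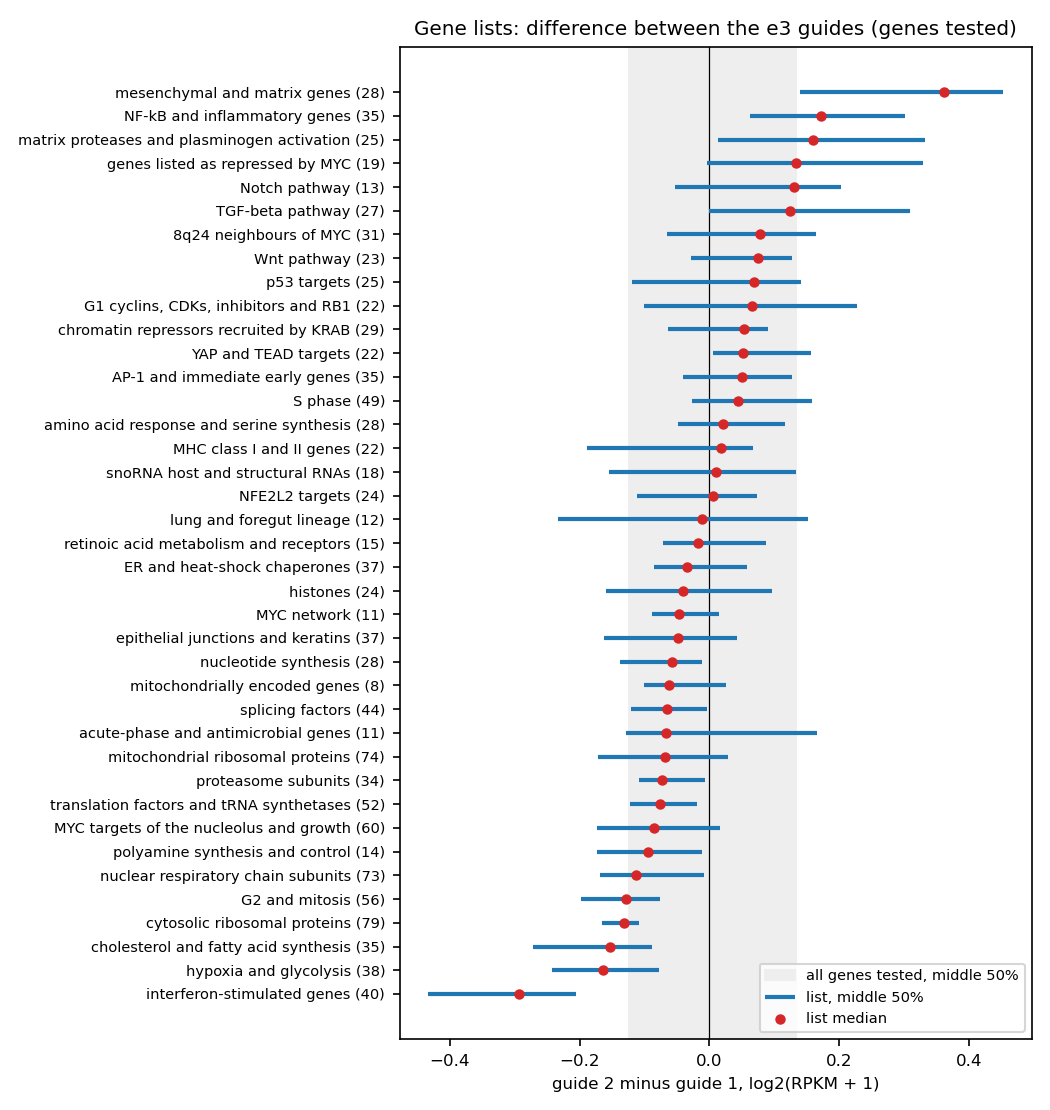
Median (red point) and middle 50% (blue line) of the difference between the e3 guides over the tested genes of each of the 39 lists, in log2(RPKM + 1), with the middle 50% of all genes tested in grey. The mesenchymal and matrix list stands at 0.36 and the interferon list at -0.29, and the other medians lie between -0.16 and 0.17.

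The controls show where each named difference lay. Of the 15 named genes on the higher side, the mean of the non-targeting libraries lay on the far side of guide 1 for 10, between the guides for 5 and beyond guide 2 for 0. Over all genes tested these shares were 43.0%, 24.7% and 32.3%. Of the 15 on the lower side it lay between the guides for 12, beyond guide 1 for 2, LDHB and ENO1, and beyond guide 2 for 1, LCN2. Cells without a guide lay beyond guide 1 for 13 of the higher genes and were spread over the 3 places for the lower ones, 4 beyond guide 1, 7 between and 4 beyond guide 2. Over all genes tested the shares for these cells were 44.2%, 20.1% and 35.8%. The named genes were chosen for a small p and for guide libraries that do not overlap. The gap between their guides is therefore wide beside the spread, and a control mean can fall in it more often for that reason. The shares over all genes are thus not those of a like set. Of the higher genes 13 of 15 were also above no guide with the non-targeting guide, and of the lower genes 11 of 15, beside 49.1% of all genes. Across genes, which are not independent replicates, the difference between the guides and that between the controls had r = 0.055 (13973 genes), or 0.093 over the 9016 genes whose mean reached 5 RPKM. The 2 differences share no library.

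**Figure D5:**
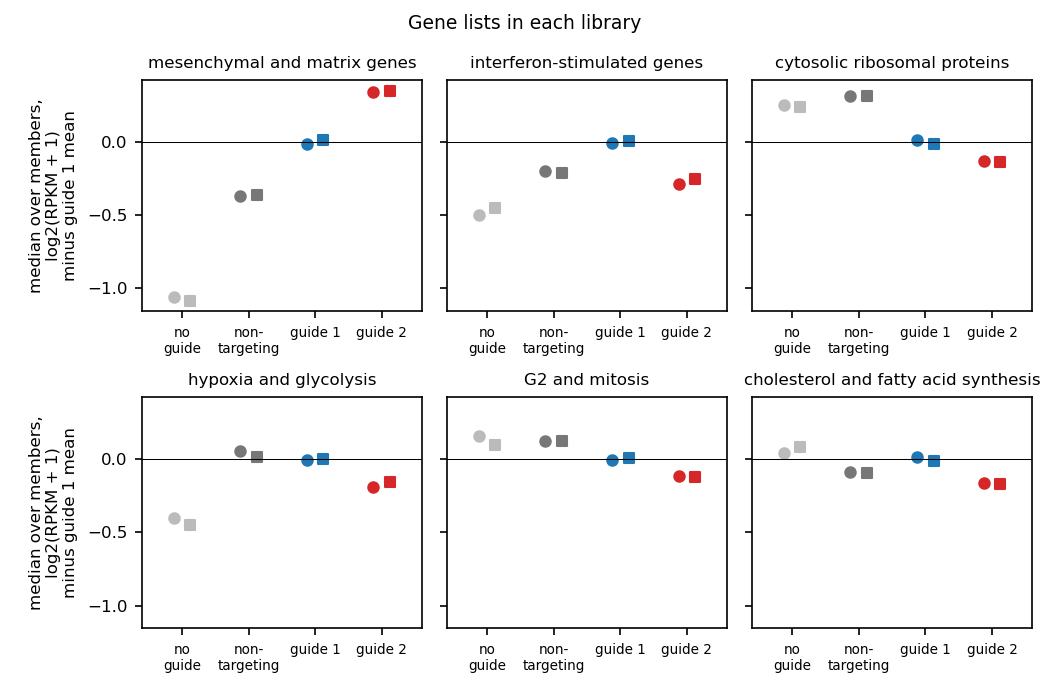
Median over the members of 6 lists in each of the 8 libraries, in log2(RPKM + 1) relative to the guide 1 mean, by group, with the replicate number by marker shape. The libraries of guide 2 lie above those of guide 1 for the mesenchymal and matrix list and below them for the other 5, and replicates lie closer to each other than the guides do.

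These further lists had medians near 0, though their counts varied beside the 4.26% of all genes that were higher and the 5.42% that were lower. Of 29 genes of the chromatin repressors that KRAB recruits, 1 was higher (3.45%) and 0 lower at an unadjusted p under 0.05, with a median of 0.05, and TRIM28 itself stood at 158 RPKM in both libraries of guide 1 and at 148 and 149 RPKM with guide 2 (adjusted p = 0.552). Of 37 genes of epithelial junctions and keratins, 1 was higher (2.70%) and 6 were lower (16.2%), with a median of -0.05. KRT8 stood at -0.12 and TJP3, a tight junction gene, at -0.66. Of 25 p53 targets 3 were higher (12.0%) and 1 was lower (4%), with a median of 0.07, CDKN1A and GADD45A (0.31) among the higher. Splicing factors had 7 of 44 lower (15.9%) and 0 higher (median -0.07), HNRNPD (-0.25) among them.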

How the data were processed

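The deposited values were RPKM (reads scaled to gene model length and library size), made by the authors, with 1 column per library, per the file headers. Build hg19 and Cufflinks appear per the submitters' processing notes, with neither role nor version. Aligner, counting, strand setting and annotation are not given in the sources used here. The libraries hold poly(A) RNA, per the labels' protocols, and sample titles gave the groups and replicate numbers.

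Genes averaging at least 1 RPKM in the 4 e3 libraries were tested with limma 3.58.1 (R 4.3.3) on log2(RPKM + 1) (variance trend, two-sided), with Benjamini-Hochberg adjustment over all 13973 genes and a call at an adjusted p under 0.05. The pseudocount of 1 understates the change of low genes. The step was tested on simulated data. Depth was inferred from whole-read steps and used for no test. Named were MYC, PVT1, the called genes and then those of smallest p to 15 a direction (libraries not overlapping, near-identical gene families passed over), and up to 4 members of each list by p; further members were picked after their values were seen. Members and the 39 gene lists were chosen with earlier results of these data known, and lists carry no test. Lists differ in level and so in spread, so the share over all genes is not that of a like set. Alternatives were another pseudocount, other filters, normalizations and spreads, a block and leaving out each library. Some named genes are not reported here but stay in all counts.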

Additional observations from a re-analysis of the deposited data

How the results depend on the processing

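The number of genes called was 1 with a pseudocount of 0.1 RPKM, with median-ratio scaling and with a robust variance. It was 0 without the filter on low values (1691 of 22440 genes at an unadjusted p under 0.05), 0 without the variance trend (1123), 3 with a minimum mean of 5 RPKM, all higher, 2 with quantile normalization, both higher, and 4 with the spread of all 8 libraries, 3 higher and 1 lower. With the replicate number as a block it was 0 (1292 genes at an unadjusted p under 0.05). Same-numbered libraries did not deviate together (r = 0.002 across 13973 genes), which does not show whether they were prepared together. Leaving out each of the 4 e3 libraries in turn gave 0 to 0 genes, with 869 to 1222 at an unadjusted p under 0.05. One guide then has a single library, assumed to vary like the other guide. The settings differ in genes, libraries, scaling or model. Why the number called changed between them was not tested. The MYC difference stayed between -0.26 and -0.21 and did not pass under any of these alternatives.

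The PVT1 difference ran from -0.219 to 0.133 as each library was left out, with the sign changed without guide 1 replicate 2 (0.133) and without guide 2 replicate 1 (0.076). That of STAT2 ran from -0.038 to 0.312, with the sign changed without guide 2 replicate 2. Every other gene whose difference is given kept its sign under each alternative run for it. Sizes moved more: with quantile normalization 10 of 101 genes moved by over 1.5 times, ALDOA the farthest (-0.145 to -0.031), and leaving out a library did so for 2 to 3, PVT1, STAT2, IRF1, FSTL3 and IFI27 among them. List medians of at least 0.10 in size kept their sign. Quantile normalization moved 18 of the 39 list medians by more than their spread between libraries, the ribosomal one to -0.08, a minimum mean of 5 RPKM moved 6, a pseudocount of 0.1 RPKM moved 2, and leaving out a library moved 10 to 15. Depth limits the low genes, such as GOLGA7B and S100A9, most.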

Other observations

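Of 12 tested lineage genes of lung and foregut (33 listed), 1 was higher (8.33%) and 3 were lower (25%) at an unadjusted p under 0.05, beside 4.26% and 5.42% of all genes, with a median of -0.01. SOX2, a foregut and stem cell transcription factor gene, stood at 6.68 and 5.25 RPKM with guide 1 and at 3.12 and 3.72 RPKM with guide 2 (-0.65 ± 0.18, adjusted p = 0.388), with 4.90 RPKM for the non-targeting guide and 18.4 RPKM without a guide. ELF3, an epithelial transcription factor gene, stood at 11.4 and 10.8 RPKM with guide 1 and at 7.54 and 6.78 RPKM with guide 2 (-0.58 ± 0.12, adjusted p = 0.330). MUC16, a mucin gene, was the one on the higher side (0.58 ± 0.18). In each of these, named for a small p, the libraries of the guides did not overlap, which was true of 41.5% of all genes.

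Of 24 NFE2L2 targets tested, 2 were higher (8.33%) and 5 were lower (20.8%) at an unadjusted p under 0.05 (median 0.01). The shares over all genes, here and for the chaperone and histone lists, were 4.26% higher and 5.42% lower. SRXN1, which repairs oxidized peroxiredoxins, stood at 7.10 and 6.38 RPKM with guide 1 and at 3.58 and 3.37 RPKM with guide 2 (-0.79 ± 0.15, adjusted p = 0.262). Of 37 chaperone genes, 4 were higher (10.8%) and 7 were lower (18.9%), with a median of -0.04. HERPUD1, of protein degradation at the endoplasmic reticulum, was at 0.48 and the chaperone gene HSP90B1 at -0.15. Of 24 histone genes 4 were lower (16.7%) and 0 higher, H1F0, a linker histone, at -0.27 among them.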
